A study of Mus musculus with 48 samples.

Results

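Chromosome 10 from 58 to 68 Mb (mm10) is a stretch of 10 Mb in which ChIP-seq signal of several targets stood higher in ZBTB11 and ZFP131 knockout embryonic stem cells than on the rest of the chromosome. Its members are all regions of every deposited list and table that lie in the stretch, which amounts to 8083 regions against 77032 on the rest of chromosome 10 and 1709793 in the whole series. The members make up 9.5% of the regions of chromosome 10 and 0.473% of all regions. Of the 8083 regions, 3365 are rows of 11 tables of knockout against wildtype, 1428 are binding events and 3290 are enriched domains from 23 lists. The stretch was chosen because its knockout over wildtype values were high, so its overall shift is a description without a test, and tests are given only for regions that differ from the other regions of the stretch.

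The study profiled 48 libraries of mouse embryonic stem cells in 24 groups of 2, for 9 targets in 4 genotypes. Of the knockout lines, Zbtb11KO carries a doxycycline-inducible copy of Zbtb11 with an HA tag, Zfp131KO carries such a copy of Zfp131, and the double knockout carries both, with HA on ZBTB11 and V5 on ZFP131. They were set against the wildtype iCre line (Ainv15). Cells for HA were grown with doxycycline and the 2 inhibitors of the medium. Cells for every other target had spent 3 days in LIF with neither doxycycline nor the inhibitors, when the tagged copies are not induced. The labels name 1 line per genotype, so a knockout and a difference between lines cannot be told apart. They name no separate cultures, so p-values measure the spread between these libraries, which may be technical.

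H3K4me3 marks the start sites of active and poised genes, H3K27ac marks active promoters and enhancers, and H3K27me3 is laid down by Polycomb repressive complex 2 over silent developmental genes. NELF holds RNA polymerase II in a paused state just downstream of start sites. SIN3A is the scaffold of a histone deacetylase complex found at many active promoters, and CHD4 is the remodelling ATPase of the NuRD complex. ZBTB11 and ZFP131 are zinc finger factors with a BTB domain.

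No file gave a value per region and library, so each value below belongs to a pooled group or to the authors' fit of a comparison, and the depth per library is unknown. Wildtype lists of chromosome 10 held 27136.7 reads for CHD4 to 1669520 for H3K4me3. Only 1 replicate is named in the header of the NELF list of wildtype. All comparisons of a target share the same wildtype libraries. Of 9 embryonic stem cell markers, 8 had at least 500 wildtype H3K4me3 reads at their gene ends, with Esrrb at 0, and so had 1 of 4 fibroblast markers, with Postn at 0. The same held for 3 of 4 primitive endoderm markers. The 4 primitive endoderm markers summed to 5333 (Zbtb11KO), 8180 (Zfp131KO) and 22618 (double knockout) reads, against 3050 in wildtype, with Gata4 at 0 in wildtype, or 0.0188%, 0.0253% and 0.038% of all listed H3K4me3 reads, against 0.00868%. The 9 embryonic stem cell markers held 0.097% (Zbtb11KO), 0.0834% (Zfp131KO) and 0.0886% (double knockout), against 0.129% in wildtype. Whether these marker reads reflect other cells, and the part of such cells in the results below, was not tested.

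The stretch overlaps 189 RefSeq genes, of which 80 are protein-coding (7.99% of the 1001 of chromosome 10). A region of at least 1 table lay within 1 kb of a start of 71 of the 80 genes, 60 were covered by at least 6 tables, and 9 by none. Promoter sequences of 5 genes are shown because the results turn on them. Zfp365 and P4ha1 departed upward from the common shift in 3 tables, Srgn held the single departing NELF region, and Ranbp2 and Ddx21 held the most reads of ZFP131 and ZBTB11. The sequences are the 250 bases before the start, 5′ to 3′ on the gene's strand, from RefSeq on GRCm38.p6, the assembly that mm10 names. They lie at chr10:67912663-67912912 (minus strand) for Zfp365, chr10:59323046-59323295 (plus) for P4ha1, chr10:62527446-62527695 (minus) for Srgn, chr10:58446602-58446851 (plus) for Ranbp2 and chr10:62602299-62602548 (minus) for Ddx21. Capitals mark matches on either strand to GGGCGG (the GC box), CCAAT (the CCAAT box), TATAAA (the TATA box) or ACGTG (a core shared by hypoxia response elements and E boxes).
Zfp365: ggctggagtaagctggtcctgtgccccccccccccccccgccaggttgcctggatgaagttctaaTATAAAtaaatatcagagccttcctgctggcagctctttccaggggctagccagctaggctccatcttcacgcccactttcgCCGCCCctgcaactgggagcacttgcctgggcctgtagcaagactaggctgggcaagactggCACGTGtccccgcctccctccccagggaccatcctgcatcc
P4ha1: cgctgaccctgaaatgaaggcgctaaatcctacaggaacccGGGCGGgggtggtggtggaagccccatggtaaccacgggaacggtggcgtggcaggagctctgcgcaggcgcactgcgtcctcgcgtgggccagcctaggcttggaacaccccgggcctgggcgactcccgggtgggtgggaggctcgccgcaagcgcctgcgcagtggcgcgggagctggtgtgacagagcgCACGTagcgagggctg
Srgn: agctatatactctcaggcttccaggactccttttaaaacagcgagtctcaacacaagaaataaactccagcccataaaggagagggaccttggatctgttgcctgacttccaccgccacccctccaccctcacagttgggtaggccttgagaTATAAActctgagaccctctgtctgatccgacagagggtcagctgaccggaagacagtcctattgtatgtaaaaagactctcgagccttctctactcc
Ranbp2: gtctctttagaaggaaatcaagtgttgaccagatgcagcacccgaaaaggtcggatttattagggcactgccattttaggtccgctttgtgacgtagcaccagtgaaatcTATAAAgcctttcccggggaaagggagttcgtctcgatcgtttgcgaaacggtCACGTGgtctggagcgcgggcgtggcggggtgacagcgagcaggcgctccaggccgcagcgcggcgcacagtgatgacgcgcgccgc
Ddx21: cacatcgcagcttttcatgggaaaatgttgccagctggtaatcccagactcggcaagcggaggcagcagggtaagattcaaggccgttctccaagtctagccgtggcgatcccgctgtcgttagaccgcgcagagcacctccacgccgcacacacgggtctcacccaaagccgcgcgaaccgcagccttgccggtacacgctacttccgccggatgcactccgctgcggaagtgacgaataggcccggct
Of the 151 promoters of the stretch, noncoding genes included, GGGCGG is in 31.8%, CCAAT in 23.8%, TATAAA in 10.6% and ACGTG in 23.2%. Of all 32851 RefSeq mouse promoters of this length, the shares are 32.7%, 33.8%, 12.4% and 16.6% in the same order. ACGTG can be part of CACGTG, which is then matched on both strands, as in the Zfp365 and Ranbp2 windows. The P4ha1 window holds 24 CG dinucleotides, Ranbp2 and Ddx21 hold 25 each, and Zfp365 and Srgn hold 6 and 5, where the median promoter of the stretch holds 7. These matches are descriptions of the letters and not of bound sites.

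All 11 tables had a higher median knockout over wildtype log2 fold change in the stretch than on the rest of chromosome 10, by 0.62 to 1.13 on the log2 scale. The values that chose the stretch are among them. For SIN3A the shift was 0.68 in Zbtb11KO (637 regions) and 0.66 in Zfp131KO (306 regions), and 93.6% and 91.5% of these regions lay above the median of the rest of the chromosome. Overlapping SIN3A regions join into 274 and 176 separate stretches, so the region counts are not counts of independent sites. The median standard error of a single SIN3A region was 0.28 in both knockouts, less than the shift itself.

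For CHD4 the shift was 1.13 in Zbtb11KO, from 36 regions, and 1.01 in Zfp131KO, from 123 regions. NELF in Zbtb11KO had a median log2 fold change of -0.46 in the stretch and -1.08 on the rest of chromosome 10, a shift of 0.62, in the authors' deposited table. NELF was thus lower than wildtype in the stretch too, but by less than elsewhere. The H3K4me3 shift was 0.98 in Zbtb11KO and 0.66 in Zfp131KO, that of H3K27ac 0.89 and 1.02, and that of H3K27me3 0.96 and 1.10. A smaller share of histone regions than of SIN3A regions lay above the median of the rest of the chromosome. It ran from 71.9% (H3K4me3 in Zbtb11KO) to 88.9% (H3K27me3 in Zbtb11KO). The median standard error of a histone region was also larger, at 1.18 for H3K4me3 in Zbtb11KO, more than its shift. In the other histone comparisons it was 0.40 (H3K27ac in Zfp131KO) to 0.50 (H3K27me3 in Zfp131KO). The shares thus do not separate variation among members from less precise values.

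Regions called higher at an adjusted p under 0.05 in the authors' deposited tables were more frequent in the stretch than in each whole table, which is how the stretch was found and is read no further. SIN3A was called higher in 201 of 637 regions in Zbtb11KO (3.44% of the whole table) and in 103 of 306 in Zfp131KO (2.98%), and lower in 2 (3.23%) and 0 (2.84%). CHD4 was called higher in 14 of 36 regions in Zbtb11KO (9.38%) and 52 of 123 in Zfp131KO (8.05%), and lower in 0 (2.82%) and 1 (8.08%). NELF was called lower in 27 of 224 regions (49.0% of the whole table) and higher in 2 (0.159%). H3K4me3 was called higher in 80 of 267 regions in Zbtb11KO (21.6%) and 95 of 306 in Zfp131KO (15.1%), and lower in 1 (12.9%) and 26 (11.4%). H3K27ac was called higher in 114 of 331 regions in Zbtb11KO (14.6%) and 169 of 356 in Zfp131KO (15.8%), and lower in 11 (11.8%) and 11 (14.3%). H3K27me3 was called higher in 89 of 360 regions in Zbtb11KO (9.09%) and 116 of 351 in Zfp131KO (11.7%), and lower in 2 (4.83%) and 4 (6.18%).

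The targets came closer together where the same kind of place was compared. On regions that overlap a wildtype H3K4me3 domain, the shift in Zbtb11KO was 0.66 for SIN3A, 0.58 for NELF, 0.65 for H3K4me3, 0.67 for H3K27ac and 0.62 for H3K27me3. In Zfp131KO it was 0.67 for SIN3A, 0.54 for H3K4me3, 0.71 for H3K27ac and 0.60 for H3K27me3. CHD4 stayed above these, at 1.11 in Zbtb11KO (11 regions) and 0.96 in Zfp131KO (37 regions). Away from those domains, H3K27ac was shifted by 1.11 in both knockouts and H3K27me3 by 0.97 in Zbtb11KO and 1.22 in Zfp131KO. H3K4me3 was shifted less there, by 0.33 in Zbtb11KO and 0.15 in Zfp131KO. SIN3A was shifted by 0.85 and 0.54, CHD4 by 1.30 and 0.91, and NELF in Zbtb11KO by 0.62.

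The lists, which include the double knockout, gave the same direction without the authors' scaling. For each list the share of chromosome 10 reads that fell in the stretch was taken. This share does not depend on the total of the list, but it does depend on how many weak places were called, which can differ with depth and enrichment. NELF events in the stretch held 11.1% (Zbtb11KO), 9.65% (Zfp131KO) and 9.23% (double knockout), against 6.38% in wildtype. H3K4me3 domains held 11.4%, 10.6% and 10.8% in the same 3 knockouts, against 7.57% in wildtype. The double knockout thus lay within 2 percentage points of both single knockouts for both targets.

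H3K27ac domains held 12.7% in Zbtb11KO and 13.4% in Zfp131KO, against 6.02% in wildtype, and H3K27me3 domains held 9.49% and 10.1%, against 4.77%. SIN3A events held 12.3% in Zbtb11KO and 6.74% in wildtype. CHD4 events held 11.4% in Zbtb11KO and 15.7% in Zfp131KO, against 2.70% in wildtype, where the stretch had only 12 events. Taken instead as reads in the stretch over reads on the rest of chromosome 10, the log2 ratio of knockout over wildtype was 0.95 for SIN3A in Zbtb11KO, 0.87, 0.65 and 0.58 for NELF (Zbtb11KO, Zfp131KO, double knockout), 0.65, 0.54 and 0.56 for H3K4me3, 1.18 and 1.27 for H3K27ac, and 1.06 and 1.17 for H3K27me3. For CHD4 it was 2.21 and 2.75, but 0.42 and 0.39 in the few stretches listed in both genotypes.

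**Figure D1:**
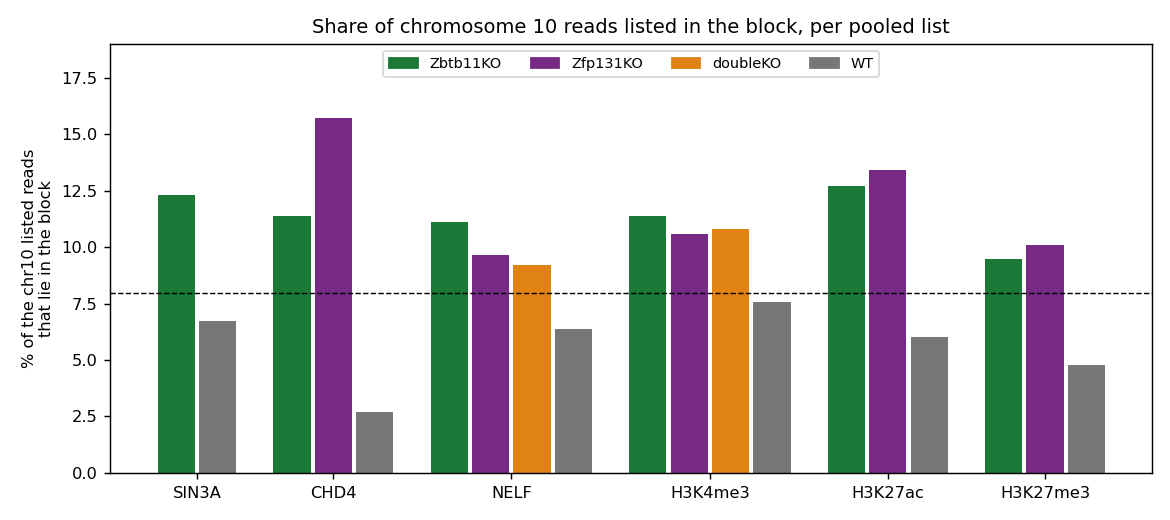
Share of the listed chromosome 10 reads that lie in the stretch, called the block in the plot (y axis, percent), by target and genotype, 1 bar per pooled list, with a dashed line at 7.99%, the share of the chromosome's protein-coding genes there. Every knockout bar is above its wildtype bar, from 9.23% against 6.38% for NELF in the double knockout to 15.7% against 2.70% for CHD4 in Zfp131KO.

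More places were listed in the knockouts for most targets. The stretch held 382 SIN3A events in Zbtb11KO and 324 in wildtype, 317 and 301 H3K27me3 domains in Zbtb11KO and Zfp131KO against 109 in wildtype, and 266 and 307 H3K27ac domains against 162. The covered length was 75.4 kb of H3K27ac domains in Zbtb11KO and 99.4 kb in Zfp131KO, against 42.9 kb in wildtype. NELF went the other way, with 95, 99 and 45 events in Zbtb11KO, Zfp131KO and the double knockout, against 173 in wildtype. Where only places listed in both genotypes were compared, the log2 ratios were 0.71 for SIN3A in Zbtb11KO, 0.52, 0.42 and 0.40 for NELF, 0.62, 0.52 and 0.55 for H3K4me3, 0.84 and 0.94 for H3K27ac, and 0.82 and 0.78 for H3K27me3.

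The files hold 1 common control library and none for each genotype, so the number of DNA copies of the stretch in each line was not tested. H3K4me3 domains of the double knockout had 51.8 control reads per kb in the stretch and 47.4 on the rest of chromosome 10, and those of wildtype had 56.1 and 50.8.

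The fitted raised signal began before 58 Mb in 10 of the 11 tables. For H3K27ac in Zfp131KO the fit began at 58.5 Mb, but at 49.1 Mb with ranks fitted and at 43.9 Mb with the fit limited to 40 to 80 Mb. One raised stretch was fitted to the values along all of chromosome 10. For SIN3A it ran from 49.8 to 69.2 Mb in Zbtb11KO and from 50.6 to 68.1 Mb in Zfp131KO. NELF in Zbtb11KO was raised from 49.0 to 68.3 Mb, and H3K4me3 from 45.2 to 68.1 Mb in Zbtb11KO and 46.6 to 68.3 Mb in Zfp131KO. H3K27ac in Zbtb11KO was raised from 49.1 to 69.9 Mb. The starts of NELF and H3K27ac in Zbtb11KO and of H3K4me3 in Zfp131KO fall in or beside the gene-poor interval between Hace1, an E3 ubiquitin ligase gene, and Grik2, a kainate receptor gene. Few regions were measured there, with 2 for SIN3A in Zbtb11KO from 46 to 50 Mb. SIN3A began at the far end of Grik2 in Zbtb11KO and in Ascc3, a helicase gene, in Zfp131KO, and H3K4me3 in Zbtb11KO began between Prep and Popdc3. The starts depended on the fit: with ranks in place of values the SIN3A start in Zbtb11KO was 4.39 Mb.

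H3K27me3 was raised from 52.0 to 69.4 Mb in Zbtb11KO and from 56.4 to 67.8 Mb in Zfp131KO, and H3K27ac in Zfp131KO from 58.5 to 70.9 Mb, with its start next to Ranbp2. That start is poorly placed, since H3K27ac was also called higher in Zfp131KO before 58 Mb in the authors' deposited table, with log2 fold changes of 0.83 at Gopc (SE 0.33, adjusted p = 0.0408) and 0.85 at Cep85l (SE 0.34, adjusted p = 0.0408). Both genes lie between 50 and 54 Mb, where the median stood 0.87 above the rest of the chromosome. From 54 to 58 Mb it was not raised, at -0.04, with 6 of 15 regions above. The H3K27me3 start in Zbtb11KO lay between Vgll2 and Ros1, and that in Zfp131KO between Tbc1d32 and Gja1. On values simulated with a start at 58 Mb, the fit for H3K27me3 in Zfp131KO also began at 56.37 Mb, so this start is poorly placed. For CHD4, with few regions, the fit began at 34.9 Mb in Zbtb11KO and 34.2 Mb in Zfp131KO and ended at 68.4 and 70.9 Mb. Other settings put the CHD4 start in Zfp131KO between 19.6 and 41.4 Mb, so it is poorly placed.

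In the double knockout NELF was raised from 52.35 to 67.95 Mb and H3K4me3 from 45.1 to 68.3 Mb, by event and domain reads in bins of 50 kb. The H3K4me3 start lay at 50.5 Mb when ranks were fitted. NELF in Zfp131KO, also from lists, gave a start at 4.4 Mb in bins of 50 kb and at 50.5 Mb in bins of 100 kb, with an end at 69.3 or 68.3 Mb. Between 50 and 58 Mb the double knockout was raised at least as much as inside the stretch. Its scaled NELF log2 ratio was 1.13 from 50 to 54 Mb and 1.63 from 54 to 58 Mb, then 0.59 from 58 to 63 Mb and 0.60 from 63 to 68 Mb. Its H3K4me3 ratio was 0.70, 0.93, 0.62 and 0.48 over the same 4 intervals.

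**Figure D2:**
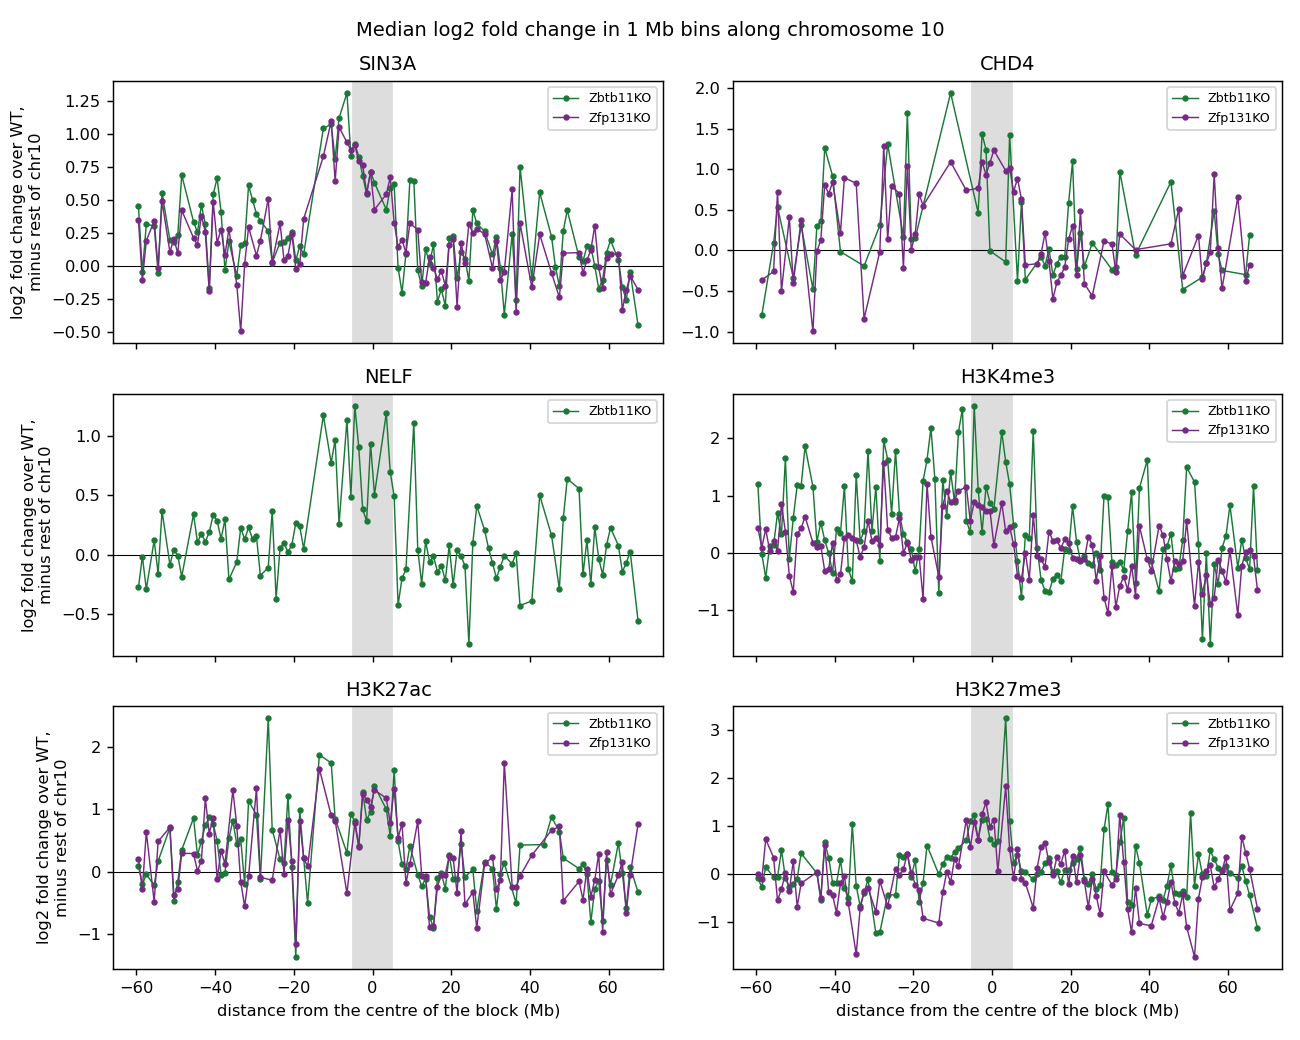
Median log2 fold change of knockout over wildtype in bins of 1 Mb, minus the median of the rest of chromosome 10 (y axis), by distance from the centre of the stretch in Mb (x axis), 1 panel per target with Zbtb11KO in green and Zfp131KO in purple, and the stretch shaded. The raised bins of SIN3A begin well left of the shading and end just right of it, where the median falls to -0.15 (Zbtb11KO) and 0.16 (Zfp131KO) from 69 to 71 Mb.

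The right end varied less between targets than the left. In the 11 tables it fell between 67.8 and 70.9 Mb, an interval that holds Zfp365, the last protein-coding gene wholly inside the stretch, and beyond it, among others, Rtkn2, Arid5b, Cabcoco1, Rhobtb1, Cdk1 and Ank3. With ranks fitted, the end was 62.99 Mb for H3K4me3 and 81.6 Mb for H3K27me3 in Zfp131KO. Arid5b is a chromatin-binding factor gene and Cdk1 encodes the mitotic kinase. From 68 to 69 Mb SIN3A was still raised by 0.62 in Zbtb11KO and 0.33 in Zfp131KO, and from 69 to 71 Mb by -0.15 and 0.16. NELF in Zbtb11KO went the same way, at 0.49 and then -0.20. Acetylation and CHD4 in Zfp131KO extended further, at 0.77 for H3K27ac and 0.84 for CHD4 from 69 to 71 Mb. In the double knockout the ratio was -0.55 for NELF and 0.54 for H3K4me3 from 68 to 69 Mb, then -0.67 and 0.01 from 69 to 72 Mb.

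The 58 Mb limit runs through raised signal for most targets. The first 5 SIN3A regions after it lay 0.90 (Zbtb11KO) and 1.00 (Zfp131KO) above the rest of the chromosome at the median, and the last 5 before it lay 1.17 and 0.91 above. From 50 to 54 Mb SIN3A was raised by 1.05 in Zbtb11KO and 0.97 in Zfp131KO, in all 47 and all 24 regions. H3K27me3 differed there, at 0.24 in Zbtb11KO and -0.14 in Zfp131KO. At the 68 Mb limit the last 5 SIN3A regions inside, beside Zfp365, lay 1.16 and 1.73 above and the first 5 outside 0.71 and 0.38.

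**Figure D3:**
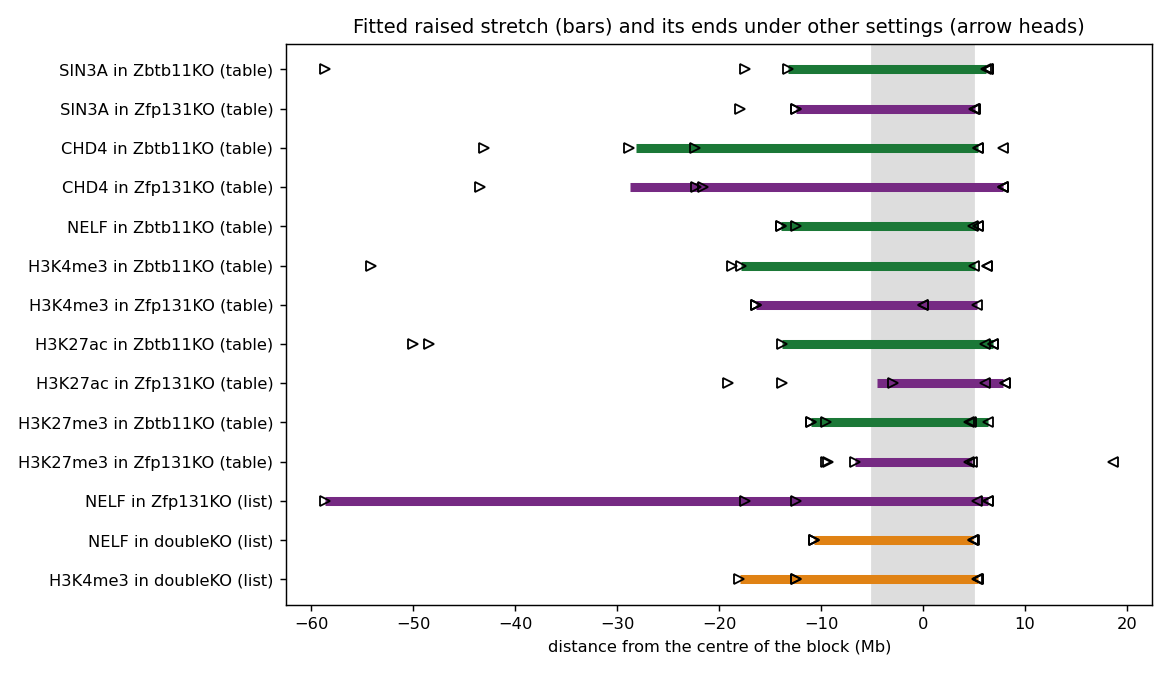
Fitted raised stretch (bars) for each comparison, with its left and right ends under other settings (open triangles), by distance from the centre of the stretch in Mb, which is shaded. Right ends sit between 67.8 and 70.9 Mb on the chromosome in the bars of the tables, while left ends range from 34.2 Mb (CHD4 in Zfp131KO) to 58.5 Mb (H3K27ac in Zfp131KO), and the bar of NELF in Zfp131KO starts at 4.4 Mb.

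Which regions departed from the common shift was tested against the median of the stretch in the same table, with a Wald test from the authors' log2 fold change and standard error and Benjamini-Hochberg adjustment over the whole table. Few SIN3A regions departed. In Zbtb11KO 7 stood above (3.33% of the whole table stood above its own median) and 14 below (3.12%), together 3.30% of the stretch where 6.44% of the whole table departed, and 9 above and 8 below once the trend of log2 fold change with mean signal was removed. In Zfp131KO 12 stood above (2.48%) and 1 below (3.11%), together 4.25% where 5.58% of the table departed. For NELF 1 of 224 regions stood above (0.283%) and 0 below (0.254%), or 0.446% where 0.537% of the table departed.

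More histone regions departed, in shares near or below those of the whole tables except for H3K27me3 in Zfp131KO. For H3K4me3 in Zbtb11KO 59 stood above (18.8% of the whole table) and 27 below (6.96%), 25.7% of the stretch where 25.8% of the table departed, and in Zfp131KO 39 above (15.5%) and 40 below (11.2%), 25.8% where 26.7% departed. For H3K27ac in Zbtb11KO 29 stood above (15.3%) and 38 below (11.0%), 20.2% where 26.3% departed, and in Zfp131KO 30 above (16.3%) and 58 below (13.7%), 24.7% where 30.0% departed. For H3K27me3 in Zbtb11KO 18 stood above (8.52%) and 32 below (5.2%), 13.9% where 13.7% departed, and in Zfp131KO 28 above (11.4%) and 55 below (6.37%), 23.6% where 17.8% departed. For CHD4 in Zbtb11KO 1 stood above (9.96%) and 4 below (2.61%), 13.9% where 12.6% departed, and in Zfp131KO 8 above (7.54%) and 7 below (8.17%), 12.2% where 15.7% departed.

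The balance of upward and downward departures depended on the trend with mean signal. With that trend removed, H3K4me3 in Zbtb11KO had 43 regions above and 33 below, and 11 regions passed the test above the common shift without the removal and below it with it. H3K27ac in Zbtb11KO then had 41 above and 36 below, and H3K27me3 in Zbtb11KO 21 above and 20 below. In Zfp131KO more regions stood below than above in both ways for H3K27ac (40 above and 63 below with the trend removed) and H3K27me3 (30 and 62).

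Zfp365, a zinc finger protein gene at the right end of the stretch, stood out in 5 tables. Its SIN3A region at chr10:67912384-67912942, which covers the promoter printed above, had a log2 fold change of 1.70 (SE 0.29) in Zfp131KO in the authors' deposited table, 1.07 above the common shift (adjusted p = 0.00954). The 4 overlapping SIN3A regions there describe the same place. Its H3K4me3 domain departed by 2.11 in Zbtb11KO and 1.48 in Zfp131KO (adjusted p = 3.13e-42 and 1.78e-34). H3K27me3 at chr10:67911742-67911794 departed downward, by -2.90 in Zbtb11KO and -2.35 in Zfp131KO (adjusted p = 1.42e-08 and 7.39e-08). Zfp365 thus stood above the common shift for H3K4me3 and below it for H3K27me3 in both knockouts. SIN3A in Zbtb11KO stood 0.49 above without passing the test (adjusted p = 0.423).

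P4ha1 encodes the catalytic subunit of collagen prolyl 4-hydroxylase. Its SIN3A region at chr10:59323481-59324144 stood 0.76 above the common shift in Zfp131KO (adjusted p = 0.0152). An overlapping SIN3A region of higher mean signal, at chr10:59323241-59323981, stood 0.63 above (adjusted p = 0.0488). With the trend with mean signal removed it stood 0.59 above and did not pass the test (adjusted p = 0.0727). The H3K4me3 domain of P4ha1 stood 2.58 above in Zbtb11KO and 0.43 above in Zfp131KO. The second was 0.21 (adjusted p = 0.282) once the trend of the table with mean signal was removed. H3K27ac at chr10:59322877-59323248, which overlaps the printed promoter, was lower than in wildtype in both knockouts in the authors' deposited tables, by log2 fold changes of -1.19 (SE 0.46) in Zbtb11KO and -1.74 (SE 0.43) in Zfp131KO. These lay -1.95 and -2.72 from the common shift (adjusted p = 0.000365 and 2.65e-08). H3K27ac thus stood below the common shift at this gene, where H3K4me3, and SIN3A in Zfp131KO, stood above it.

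Ado, a thiol dioxygenase gene, stood above the common shift for H3K4me3 by 1.45 in Zbtb11KO and 0.73 in Zfp131KO and for SIN3A in Zfp131KO by 0.77 (adjusted p = 0.0294). The SIN3A departure was at chr10:67548122-67548721, while the stronger region at chr10:67548993-67549493 did not depart (-0.07, adjusted p = 0.906). Tysnd1, a peroxisomal protease gene, stood above for SIN3A in Zfp131KO by 0.62 (adjusted p = 0.0452), for H3K4me3 in Zbtb11KO by 1.63, and for H3K27me3 in Zfp131KO by 2.20 (adjusted p = 0.000123). Its H3K27ac stood -1.55 from the common shift in Zfp131KO (adjusted p = 0.00634). With the trend of that H3K4me3 table with mean signal removed, the Zbtb11KO departures were -0.004 at Ado and 0.17 at Tysnd1 and no longer passed the test (adjusted p = 0.992 and 0.187). The SIN3A departure of Tysnd1 did not pass either, at 0.55 (adjusted p = 0.0848). In the authors' deposited table the Tysnd1 H3K27me3 region had a log2 fold change of 3.30 (SE 0.47) in Zfp131KO.

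**Figure D4:**
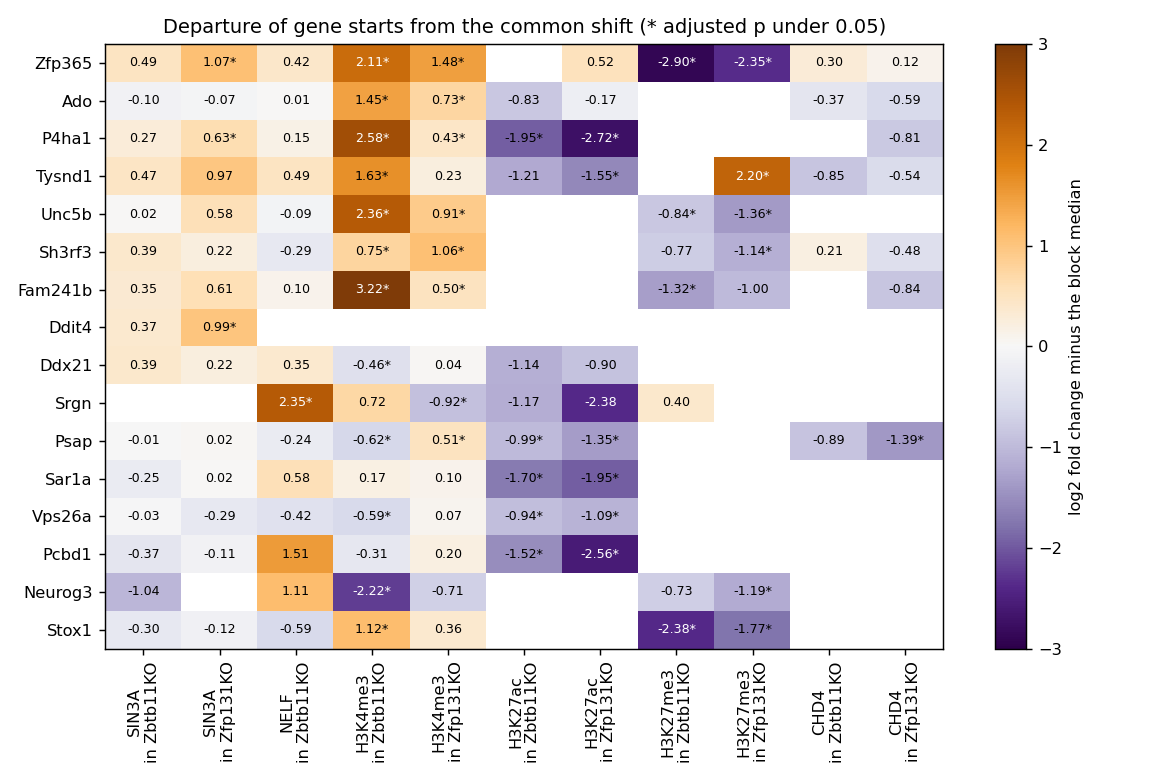
Departure of the log2 fold change at gene starts from the median of the stretch (colour and printed value) for 16 genes (down the page, chosen after their values were seen) in 11 tables, with an asterisk at an adjusted p under 0.05 and white where the gene had no region. The region with the highest mean signal stands for each gene. Zfp365 runs from 2.11 for H3K4me3 to -2.90 for H3K27me3 in Zbtb11KO, and H3K27ac is below the median of the stretch in both knockouts at P4ha1, Psap, Sar1a, Vps26a and Pcbd1.

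SIN3A in Zfp131KO departed upward at 2 further genes. Ddit4, a stress-induced inhibitor of mTORC1, stood 0.99 above (adjusted p = 0.00952), and an inner start of Jmjd1c, a jumonji-domain protein gene, 0.93 above (adjusted p = 0.00854) at chr10:67126691-67127191. In Zbtb11KO only 2 of the 21 departing SIN3A regions lay within 1 kb of a gene end. One was at Ddx21, an RNA helicase gene, 0.46 above (adjusted p = 0.0389) at chr10:62601947-62602733, or 0.38 (adjusted p = 0.106) with the trend removed. The other was at Pald1, 0.63 below (departure -0.63, adjusted p = 0.0455), where the authors' deposited table gave a log2 fold change of -0.04 (SE 0.21).

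Srgn encodes serglycin, the core protein of granule proteoglycans. NELF at chr10:62527047-62527547, which overlaps the 3′ end of the printed promoter, had a log2 fold change of 1.89 (SE 0.57) in Zbtb11KO in the authors' deposited table, 2.35 above the common shift (adjusted p = 0.0152). The NELF lists held 125.2 reads there in Zbtb11KO and no event in Zfp131KO, the double knockout or wildtype. H3K4me3 reads listed at the Srgn start were 187 (Zbtb11KO), 314 (Zfp131KO) and 954 (double knockout), against 42 in wildtype. H3K27ac at chr10:62527656-62527998 departed downward by -2.22 in Zbtb11KO and -3.79 in Zfp131KO (adjusted p = 3.46e-05 and 4.79e-10).

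For H3K27ac the gene starts that departed did so mainly downward. Of 46 gene starts with a region in Zbtb11KO, 9 stood below (11.0% of the whole table) and 0 above, and of 48 in Zfp131KO, 15 stood below (13.7%) and 1 above. With the trend removed, 9 stood below and 0 above in Zbtb11KO and 18 below and 3 above in Zfp131KO. The common shift is a median over all regions of the stretch. Of these, 138 (Zbtb11KO) and 137 (Zfp131KO) overlapped a wildtype H3K4me3 domain, and 193 and 219 did not. The shift was 0.67 and 0.71 on those domains and 1.11 in both knockouts away from them. The percentages are also of all regions, so the counts do not set these gene starts apart from promoters outside the stretch. Besides P4ha1 and Srgn, a narrow region of Reep3 (endoplasmic reticulum shaping) stood -1.60 from the common shift in Zbtb11KO and -3.06 in Zfp131KO, and Pcbd1 (pterin dehydratase) -1.52 and -2.56. Sar1a (the GTPase of COPII vesicles) stood -1.70 from the common shift in Zbtb11KO and -1.95 in Zfp131KO. A region of Vps26a (retromer) stood -0.94 and -1.09 from it, and Kifbp, at different regions, -2.56 and -0.98. At Vps26a a separate region at chr10:62487295-62487330 departed upward by 1.20 in Zbtb11KO (adjusted p = 0.00241). In Zfp131KO Adamts14, a procollagen peptidase gene, stood 1.99 above (adjusted p = 0.00535), and so did a region just before the start of Nodal, the TGF-beta ligand of the early embryo, by 0.91 (adjusted p = 0.016). Most departing H3K27ac regions were away from gene ends, 51 of 67 in Zbtb11KO and 64 of 88 in Zfp131KO.

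Psap, which encodes the precursor of the lysosomal saposins, was below the common shift in 5 tables. Its CHD4 region had a log2 fold change of -0.38 (SE 0.29) in Zfp131KO in the authors' deposited table, -1.39 from the common shift (adjusted p = 0.000107), and H3K27ac stood -0.99 from it in Zbtb11KO and -1.35 in Zfp131KO (adjusted p = 0.0131 and 0.000402). H3K4me3 in Zbtb11KO stood -0.62 from it (adjusted p = 0.00688). In Zfp131KO a narrow H3K4me3 region of Psap at chr10:60277154-60277250 stood -2.20 from it, while the main domain stood 0.51 above (adjusted p = 0.00274), or 0.22 (adjusted p = 0.302) with the trend removed, so H3K4me3 in Zfp131KO gave no single direction. SIN3A at Psap did not depart (-0.01 in Zbtb11KO and 0.02 in Zfp131KO, adjusted p = 0.984 and 0.964).

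H3K27me3 departures at gene starts were downward at 8 of 24 genes in Zbtb11KO (5.2% of the whole table) and at 9 of 28 in Zfp131KO (6.37%), with 0 (8.52%) and 2 (11.4%) upward. With the trend removed, 4 and 9 were downward. Here too the common shift and the percentages are over all regions. The H3K27me3 shift was 0.62 (Zbtb11KO) and 0.60 (Zfp131KO) on wildtype H3K4me3 domains, and 0.97 and 1.22 away from them. The counts thus do not set these gene starts apart from promoters outside the stretch. Stox1, a winged helix gene, stood -2.38 from the common shift in Zbtb11KO and -1.81 in Zfp131KO at chr10:62726714-62726746. Lrrtm3, a synaptic leucine-rich repeat gene, stood -1.92 and -3.02 from it, and the start of Unc5b, a netrin receptor gene, -0.84 and -1.36. In Zfp131KO a region at the far end of Atoh7, a retinal transcription factor gene, stood -2.17 from it at chr10:63101203-63101275. The Atoh7 region beside the start, with a log2 fold change of -0.19 in the authors' deposited table, did not depart. Npffr1, a neuropeptide receptor gene, stood -1.89 from the common shift in Zfp131KO. Neurog3 (the endocrine progenitor factor) and Tacr2 (a tachykinin receptor) were below in both H3K27me3 tables and in 1 H3K4me3 table each. For Neurog3 in Zbtb11KO the departing H3K27me3 region lay just past the gene end. The H3K27me3 domain over its start, with a log2 fold change of 0.28 in the authors' deposited table, did not depart. At some of these genes the knockout and wildtype levels themselves were close. In the authors' deposited tables the log2 fold change was 0.17 in Zbtb11KO and -0.27 in Zfp131KO at Unc5b, and 0.14 and -0.13 at Egr2, a hindbrain zinc finger factor gene. With the trend removed, the Zbtb11KO departures of Unc5b (-0.60) and of Pcbd1 for H3K27ac (-0.89) no longer passed the test (adjusted p = 0.182 and 0.0927), nor did that of Neurog3 for H3K4me3 (-1.79, adjusted p = 0.0896).

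Upward H3K27me3 departures in Zfp131KO were at Tysnd1 and at Sirt1, a deacetylase gene, which stood 2.45 above (adjusted p = 0.0137). A region of Tspan15, a tetraspanin gene, stood 1.72 above (adjusted p = 0.00537). H3K4me3 stood above the common shift at 38 of 68 gene starts in Zbtb11KO (18.8% of the whole table) and 25 of 67 in Zfp131KO (15.5%), and below at 14 (6.96%) and 3 (11.2%). Log2 fold changes in the Zbtb11KO table rise with mean signal. With the trend removed, 23 gene starts stood above and 21 below in Zbtb11KO, and 4 above and 4 below in Zfp131KO, so the excess above the common shift at gene starts was lost or nearly lost. In Zbtb11KO 9 of the 38 then passed the test below the common shift, among them Sirt1 (0.89, and -0.57 with the trend removed) and Ccar1 (0.31 and -1.14).

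Without that removal, the largest upward H3K4me3 departures at gene starts in Zbtb11KO were 3.22 at Fam241b and 3.16 at Sgpl1 (sphingosine-1-phosphate lyase), followed by P4ha1, Rufy2 at 2.55, Npffr1 at 2.46 and Nrbf2, an autophagy gene, at 2.45. With the trend removed the departures were 1.76 at Fam241b, 1.70 at Sgpl1, 1.12 at P4ha1, 1.09 at Rufy2 and 0.99 at Nrbf2, and Npffr1 (2.68) and Zfp365 (2.04) stood higher than all of them. A region near the end of Nodal stood 4.04 above in Zbtb11KO at chr10:61423887-61424510, while the Nodal start domain stood -0.53 from the common shift. In Zfp131KO a narrow region near the end of Supv3l1, a mitochondrial RNA helicase gene, stood 3.65 above at chr10:62430001-62430078. An H3K4me3 region near the end of Spock2 stood -2.47 from the common shift in Zbtb11KO, and the one at its start 0.75 above.

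Genes were also grouped by role, with 1 region per gene and table. Among 11 chromatin and transcription genes of the stretch, SIN3A was called higher at 6 of 11 in Zbtb11KO and 6 of 10 in Zfp131KO in the authors' deposited tables and lower at 0, where all gene starts of the stretch had 34 of 64 (53.1%) and 37 of 61 (60.7%) called higher, with medians of 0.59 and 0.85 where all gene starts had 0.66 and 0.74. Tet1, the 5-methylcytosine dioxygenase, had 0.51 (SE 0.19) and 0.81 (SE 0.19), neither departing, and Egr2 had 0.29 and 0.41. Among signalling and development genes SIN3A was called higher at 2 of 8 in Zbtb11KO and 4 of 7 in Zfp131KO, with Nodal at 0.83 (SE 0.19) and 0.86 (SE 0.19). Among mitochondrial and metabolic genes it was called higher at 8 of 11 and 6 of 11, with Hk1, a hexokinase gene, at 0.67 and 0.76. Among RNA, translation and stress genes it was called higher at 8 of 11 in both, with Ddx21 at 0.98 (SE 0.14) and 0.85 (SE 0.15).

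Trafficking and lysosome genes had SIN3A called higher at 3 of 9 in Zbtb11KO and 5 of 9 in Zfp131KO, and adhesion and synapse genes at 2 of 4 in both, with 0 lower, beside the 53.1% and 60.7% of all gene starts. For H3K27ac the trafficking genes had medians of -0.30 in Zbtb11KO and -0.05 in Zfp131KO, where all gene starts of the stretch had 0.33 and 0.36, and 5 and 6 of 10 stood below the common shift, beside 19.6% and 31.2% of all gene starts. The other lists had H3K27ac medians between 0.20 and 0.71. H3K27me3 medians were -0.25 in Zbtb11KO and -0.03 in Zfp131KO for adhesion and synapse genes, 0.25 and -0.05 for signalling genes and -0.01 and -0.13 for chromatin genes, where all gene starts had 0.27 and 0.29. H3K4me3 in Zfp131KO was called higher at 8 of 11 chromatin genes, 5 of 10 signalling genes, 9 of 13 metabolic genes, 7 of 8 RNA genes, 9 of 10 trafficking genes and 4 of 4 adhesion genes, and lower at 0 in every list, where all gene starts had 50 of 67 (74.6%) called higher.

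Listed H3K4me3 reads at gene starts let the double knockout be set beside the single ones. For 62 protein-coding genes with at least 50 wildtype reads, the median log2 ratio of knockout over wildtype, scaled by the rest of chromosome 10, was 0.53 (Zbtb11KO), 0.52 (Zfp131KO) and 0.52 (double knockout), and 58, 54 and 54 genes were above 0. Zfp365 was highest in all 3, with 2092, 2651 and 3870 reads in Zbtb11KO, Zfp131KO and the double knockout, against 790 in wildtype, which gave 1.70, 1.84 and 1.47. Neurog3 was lowest in all 3, with 10, 32 and 15 reads against 175 in wildtype, and ratios of -3.83, -2.36 and -4.36. The 3 ratios share the same wildtype list, and reads outside called domains are not counted. In the authors' deposited tables H3K4me3 at Neurog3 was not called lower. Its log2 fold change was -1.49 (SE 0.80, adjusted p = 0.141) in Zbtb11KO and -0.16 (SE 0.58, adjusted p = 0.865) in Zfp131KO, at the region of highest mean signal.

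Unc5b (1.41, 1.30 and 1.29) and Sh3rf3, a gene for a scaffold of JNK signalling (0.92, 1.44 and 1.34), were also high in all 3 knockouts. Ado had 4455, 5904 and 10439 reads against 3113 in wildtype. Sgpl1 and Fam241b were high in Zbtb11KO (1.53 and 1.69) and nearer the median in Zfp131KO (0.66 and 0.84) and the double knockout (0.74 and 0.80). Dnajc12, a co-chaperone gene, was below 0 in all 3, at -0.15, -0.29 and -0.37. The SD over genes was 0.72 (Zbtb11KO), 0.53 (Zfp131KO) and 0.74 (double knockout), larger than each median.

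NELF events within 1 kb of gene starts gave medians of 0.94 in Zbtb11KO (48 genes), 0.92 in Zfp131KO (46 genes) and 1.22 in the double knockout (32 genes), of 57 genes with at least 50 wildtype reads. The other genes had no listed event in that knockout and give no ratio, so the 3 medians cover different sets of genes. Leaving out genes that lost every listed event raises the medians, and more genes were left out in the double knockout than in either single knockout. Over all NELF reads of the stretch the ratios were 0.87, 0.65 and 0.58, with the double knockout lowest. Zfp365 had 155.0, 306.6 and 202.7 NELF reads against 167.8 in wildtype, which gave 1.51, 1.94 and 2.51. Pald1 was lowest, with 170.9, 197.8 and 146.5 reads against 710.3, and ratios of -0.43, -0.77 and -0.04. At Nodal the ratios were 0.83, 0.70 and 1.19, and at Psap 0.91, 0.67 and 1.52.

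**Figure D5:**
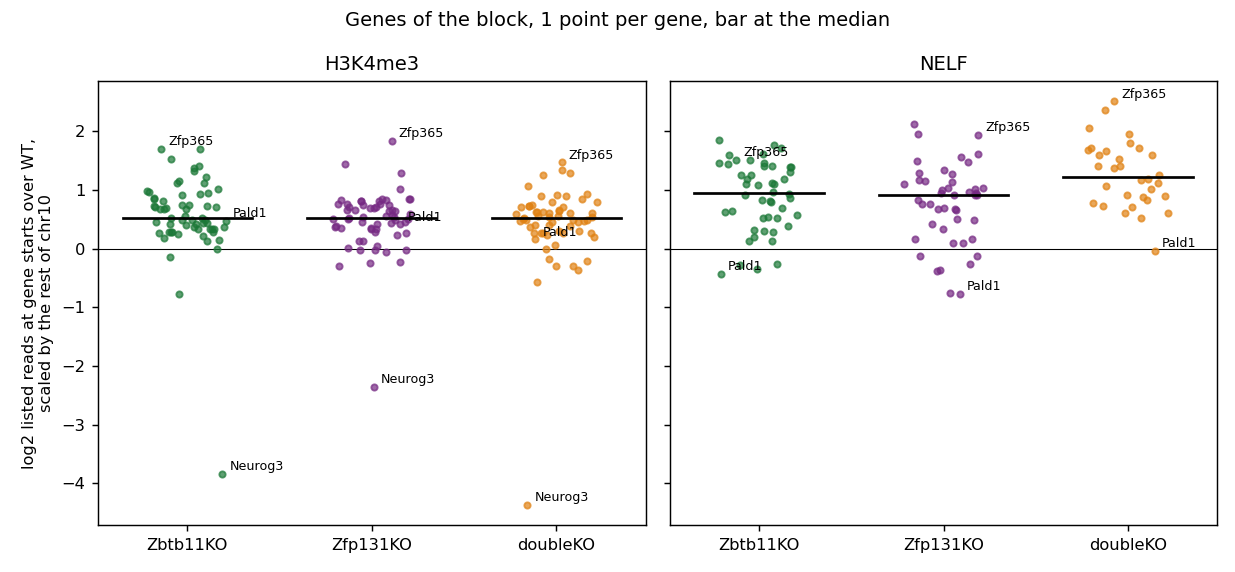
Log2 ratio of listed reads at gene starts, knockout over wildtype and scaled by the rest of chromosome 10 (y axis), for H3K4me3 (left) and NELF (right) in the 3 knockouts, 1 point per gene and a bar at the median. Zfp365 is the highest H3K4me3 gene in all 3 knockouts (1.47 to 1.84) and Neurog3, with few listed reads, the lowest (-4.36 to -2.36). The NELF medians are 0.94, 0.92 and 1.22, over genes that still had a listed event in that knockout, which raises them.

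The 2 factors, measured through their HA tag, bound the stretch unequally. ZBTB11 had 76 events, of which 42 lay within 1 kb of a start of 32 of the 80 protein-coding genes, and the 76 held 5.89% of its chromosome 10 reads. ZFP131 had 17 events, 14 of them at 7 of the 80 genes (8.75%), and they held 21.3% of its chromosome 10 reads, with 63.8% of the reads of the stretch in the 4 largest events. The stretch held 7.06% of the ZBTB11 events of chromosome 10 and 10.6% of those of ZFP131, beside 7.99% of its protein-coding genes. The share of genes with an event was not counted outside the stretch. These cells had the tagged factor induced, so the values do not come from the knockout state. They are of the same 2 knockout lines, and whether the raised signal of the stretch enters these shares was not tested.

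The most ZBTB11 reads were at Ddx21, with 1691.1 over 4 events, 2 of them at positions 62602648 and 62602274, on either side of the printed promoter. Dnajb12, an endoplasmic reticulum co-chaperone gene, had 503.1, Gcc2, a golgin gene, 327.6, the shared start of Septin10 and Sowahc 278.1, and Macroh2a2, a histone variant gene, 270.4. The most ZFP131 reads were at Ranbp2, a nuclear pore gene, with 2087.3, of which 1531.8 were in an event at position 58446849, at the 3′ end of the printed promoter. Dnajb12 had 1840.4, Tysnd1 1570.7, Slc25a16, a mitochondrial carrier gene, 1116.5, and Supv3l1 743.7. All ZFP131-bound genes except Slc25a16 also held a ZBTB11 event. Zfp365 and P4ha1 held ZBTB11 events alone, with 52.5 and 65.3 reads.

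Genes with a ZBTB11 event had a median SIN3A log2 fold change of 0.82 in Zbtb11KO (32 genes), and the other genes had 0.58 (32 genes). For H3K4me3 in Zbtb11KO the medians were 1.83 and 0.86, and for NELF in Zbtb11KO -0.31 and -0.55. Both groups lay above the median of all regions on the rest of chromosome 10. Gene starts outside the stretch were not compared. H3K4me3 log2 fold changes in Zbtb11KO rise with mean signal, for which the 2 groups were not matched. At the 7 genes with a ZFP131 event (6 for H3K27ac) the medians in Zfp131KO were 0.82 for SIN3A, 0.78 for H3K4me3 and 0.33 for H3K27ac, and at the other genes 0.74, 0.78 and 0.36. The difference between bound and other genes was not tested.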

How the data were processed

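Groups of the 48 libraries follow the target, genotype and medium in the labels. The submitters' processing notes name Bowtie 1.0.1, the build mm10, bedtools and DESeq2 1.28.1. The authors' event lists come from MultiGPS and give each event's signal, in reads over pooled replicates, with that of the control, per the file headers. The authors' domain lists come from the SEED domain finder and give a count of reads and of control reads per domain on pooled replicates, with blacklisted regions left out, per the file headers. The authors' deposited tables give for each region a mean signal (taken as a score), the log2 fold change, its SE, a p-value and the adjusted p-value from DESeq2. How the tables were scaled is not given in the sources used here. Regions listed in only 1 genotype showed that positive values mean higher in the knockout, in every table but that of SIN3A in Zfp131KO. That table had no list of its own to check against and was read the same way. Both single knockouts had the same NELF table, whose regions match the list of Zbtb11KO, and NELF in Zfp131KO was therefore taken from lists. CHD4 and SIN3A had the same list in Zfp131KO, used for CHD4 alone. The planned edgeR fit needed counts per library, which these files do not give. There were 0 columns of other samples.

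The shift of a table is the median log2 fold change in the stretch minus that on the rest of chromosome 10. List ratios divide reads in the stretch by reads on the rest of chromosome 10. Bins of 50 kb needed reads in both genotypes and 50 reads in all. Ends came from a least-squares fit of 1 raised stretch of at least 5 values. Departures used z = (log2 fold change minus the median of the stretch)/SE, two-sided, with Benjamini-Hochberg adjustment over the whole table and a threshold of 0.05. The test takes the median as known. Gene positions came from RefSeq on GRCm38.p6, whose table here gives gene ends without exons, and a region belongs to a gene within 1 kb of an end. Counts over gene starts take, for each gene, the region of highest mean signal within 1 kb of its start. By rule the text names up to 8 departing genes per target, genes departing in 3 or more tables, genes at the ends, up to 4 per role list by mean signal, and up to 5 promoters per factor. Jmjd1c, Unc5b, Sh3rf3, Dnajc12, Egr2, Hk1 and other genes named outside this rule were chosen after their values were seen. The members, the 6 role lists and the tests were chosen with earlier results of these data known. The methods were tried on values simulated with a raised stretch from 58 to 68 Mb. Fitted starts ran from 56.37 Mb (H3K27me3 in Zfp131KO) to 61.42 Mb (CHD4 in Zfp131KO). Fitted ends ran from 62.67 Mb (H3K27me3 in Zfp131KO) to 68.91 Mb (NELF in Zbtb11KO). Of the simulated departures, 43.5% were recovered for H3K4me3 in Zbtb11KO and 85.0% to 100% in the other comparisons. Each simulated departure was 3 up or down on the log2 scale, larger than every SIN3A departure named above. Recovery of smaller departures was not tried, so these shares do not say how complete the lists of departing regions are. Python 3.11.15, numpy 2.4.6, pandas 2.3.3, scipy 1.17.1, statsmodels 0.14.6 and matplotlib 3.10.9 were used.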

Additional observations from a re-analysis of the deposited data

How the results depend on the processing

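No paired analysis was possible because no file gives values per library, and for the same reason no replicate could be left out. The shift stayed positive in all 11 tables under every setting tried. With only regions at or above the median mean signal it was 0.41 for H3K4me3 in Zfp131KO, 0.55 for H3K27ac in Zbtb11KO, and 0.56 and 0.59 for H3K27me3 in Zbtb11KO and Zfp131KO. On wildtype H3K4me3 domains it was 0.65 for H3K4me3 in Zbtb11KO and 0.62 and 0.60 for H3K27me3 in Zbtb11KO and Zfp131KO. In stretches listed in both genotypes the list ratio was 0.42 and 0.39 for CHD4 in Zbtb11KO and Zfp131KO, 0.52 and 0.42 for NELF, and 0.78 for H3K27me3 in Zfp131KO, and the median of 50 kb bins gave 0.55 and 1.37 for CHD4. The cause was not tested.

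Starts in Mb with ranks fitted were 4.39 for SIN3A in Zbtb11KO, 19.6 for CHD4 in Zfp131KO, 8.82 for H3K4me3 in Zbtb11KO, 14.6 and 49.1 for H3K27ac in Zbtb11KO and Zfp131KO, 53.5 for H3K27me3 in Zfp131KO and 50.5 for H3K4me3 in the double knockout. Ends were 69.2 and 62.99 for H3K4me3 in Zbtb11KO and Zfp131KO, and 67.7 and 81.6 for H3K27me3. With regions at or above the median mean signal, starts were 45.6 and 45.1 for SIN3A, 19.9 and 41.4 for CHD4, 50.6 for NELF in Zbtb11KO, 13.0 and 60.1 for H3K27ac, and 53.5 and 53.7 for H3K27me3, in Zbtb11KO and Zfp131KO, and ends were 70.9 for CHD4 in Zbtb11KO, 63.02 for H3K4me3 in Zfp131KO, 69.035 for H3K27ac in Zfp131KO and 67.5 for H3K27me3 in Zbtb11KO. Bins of 100 kb gave 50.5 to 68.3 for NELF in Zfp131KO. A fit limited to 40 to 80 Mb, chosen after seeing the data, gave starts of 40.6 and 40.7 for CHD4, 43.9 for H3K27ac in Zfp131KO, 45.5 for NELF in Zfp131KO and 50.5 for H3K4me3 in the double knockout, and an end of 69.2 for H3K4me3 in Zbtb11KO. The cause was not tested.

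Departing regions at an adjusted p under 0.01 numbered 4 and 6 for SIN3A, 1 and 7 for CHD4, 0 for NELF, 52 for H3K4me3 in Zfp131KO, 38 and 53 for H3K27ac, and 26 and 44 for H3K27me3, in Zbtb11KO and Zfp131KO. Against the rest of the table in place of the stretch they numbered 206 and 99 for SIN3A, 16 and 51 for CHD4, 11 for NELF, 123 for H3K4me3 in Zfp131KO, 132 and 185 for H3K27ac, and 87 for H3K27me3 in Zbtb11KO, since that test includes the common shift. With regions at or above the median mean signal alone they numbered 2 for SIN3A in Zbtb11KO, 3 and 9 for CHD4, 0 for NELF, 31 for H3K4me3 in Zfp131KO, 18 and 24 for H3K27ac, and 16 and 18 for H3K27me3, with fewer regions tested. With the trend with mean signal removed, a setting chosen after seeing the data, NELF had 2, and the counts of the other 10 tables stayed within 1.5 times, but not always with the same regions. For H3K4me3 62 of 86 departing regions in Zbtb11KO and 43 of 79 in Zfp131KO departed in the same direction in both ways, and in Zbtb11KO 11 turned from above to below past the threshold. Of the departures of named genes, 57 of 68 stayed past the threshold there and 11 did not. Against the rest of the table the sign turned for Kifbp (0.036) and P4ha1 (0.15) for H3K27ac in Zfp131KO, and for the start domains of Nodal (0.38) and Supv3l1 (0.43) for H3K4me3 in Zbtb11KO. Regions with few reads, such as those of CHD4 and narrow domains, place neither ends nor departures closely.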

Other observations

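Windows of 10 Mb along all chromosomes, in steps of 2 Mb and with at least 20 regions, place the stretch in the genome. In Zfp131KO its median stood 0.61 above that of the table for SIN3A, 0.99 for CHD4 and 1.08 for H3K27me3. Of 1256, 991 and 1267 windows elsewhere, 0 stood as high. Windows elsewhere leave out chromosome 10 near the stretch, also windows beside it that do not touch it. With all windows counted, that of the stretch ranked 7, 4 and 3. The highest elsewhere were 0.50 on chromosome 7 for SIN3A, 0.87 on chromosome 1 for CHD4 and 0.94 on chromosome 4 for H3K27me3. For H3K27ac and H3K4me3 in Zfp131KO, 7 and 13 windows elsewhere stood as high.

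In Zbtb11KO other windows stood higher, and the highest of each of the 6 tables lay on the X chromosome. For SIN3A 17 of 1279 windows elsewhere stood as high as the 0.59 of the stretch, the highest with 1.45 from 108 to 118 Mb of X. For CHD4 it was 11 of 806 windows, for NELF 13 of 1269, for H3K27ac 41 of 1267, for H3K4me3 71 of 1290 and for H3K27me3 7 of 1271. Neighbouring windows overlap, and these counts are descriptions of the tables.

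In wildtype cells, where they were measured alone, SETD1A events in the stretch held 5.17% of the chromosome 10 reads, and serine 5-phosphorylated polymerase II domains held 9.05%.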
